A study of Mus musculus with 2 samples.

Results

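Fos, Fosb, Jun, Junb and Jund encode subunits of the transcription factor AP-1, and Egr1, Atf3, Ier2, Dusp1 and Zfp36 are further immediate early genes that cells switch on together with them. These 10 genes were taken by symbol from the 20299 genes of the deposited count matrix, and all 10 were found. They were followed across the 16 clusters that the authors had named among kidney cells of mice with nephrotoxic nephritis (NTN), an antibody-driven glomerulonephritis. Their summed level was higher in the Vsir-/- library than in the WT library in 11 of the 13 clusters with at least 20 cells in each library, and lower in B cells and neutrophils. Atf3 was higher in the Vsir-/- library in all 13, 1 of which had only 5 Atf3 UMIs in each library, and Jund differed 2-fold in none.

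The data were 3′ single-cell libraries, 1 for each genotype. WT cells came from the kidneys of C57BL/6 mice with an intact Vsir gene, which encodes the immune checkpoint VISTA, and Vsir-/- cells from C57BL/6 mice lacking it. Per the labels the mice of both groups were 8 weeks old. Both had received 200 μg of sheep immunoglobulin with complete adjuvant and, 4 days after it, per the labels, 2 μl of nephrotoxic serum per gram by vein (the methods of the study give another dose of serum), and both kidneys were digested for 30 min with liberase, 0.2 mg per ml, at 37 °C. The labels state that CD45+ cells had been sorted for the WT library and that all cells of the kidney went into the Vsir-/- library, whereas the methods of the study describe a sort. How many mice each library held, and how long after the serum the kidneys were taken for it, is not given in the sources used here. With 1 library a genotype, any difference between mice, sorts, libraries or their upstream processing cannot be told apart from the genotype, no test between genotypes was possible, and every interval given is a 95% interval of counting error only.

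An immediate early gene is transcribed from factors already present in the cell, within minutes of a stimulus and without new protein. Growth factor, antigen receptor, cytokine and stress signals reach the promoters of these genes through kinases of the MAPK family, serum response factor and CREB. Fos proteins bind DNA as partners of Jun proteins, whereas Jun proteins also pair with each other, and ATF3 joins the same dimers. Negative feedback products are in the set as well, since DUSP1 removes phosphate from MAPKs and ZFP36 (tristetraprolin) speeds the decay of cytokine mRNA. Warm enzymatic digestion of tissue is itself a known inducer of these genes.

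The upstream stretches of 5 members are shown because they carry, within 150 bases before the transcription start, the letters through which such signals are known to be read. They come from the RefSeq promoter table, build GRCm38.p6, in which 8 members were searched. Ier2 and Egr1 were not searched and are named only. Each runs 5′ to 3′ on the strand of the gene up to the base before the start, and capitals mark every match, on either strand, to one of 7 motifs.
Fos: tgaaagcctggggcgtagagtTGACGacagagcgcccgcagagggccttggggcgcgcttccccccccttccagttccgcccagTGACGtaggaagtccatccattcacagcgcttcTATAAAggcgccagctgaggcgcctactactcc
Jun: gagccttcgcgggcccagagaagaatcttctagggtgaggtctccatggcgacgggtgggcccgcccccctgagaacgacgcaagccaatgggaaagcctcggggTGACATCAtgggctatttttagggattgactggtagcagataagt
Atf3: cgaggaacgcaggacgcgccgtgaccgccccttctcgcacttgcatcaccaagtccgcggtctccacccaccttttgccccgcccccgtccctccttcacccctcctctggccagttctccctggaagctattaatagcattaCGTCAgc
Dusp1: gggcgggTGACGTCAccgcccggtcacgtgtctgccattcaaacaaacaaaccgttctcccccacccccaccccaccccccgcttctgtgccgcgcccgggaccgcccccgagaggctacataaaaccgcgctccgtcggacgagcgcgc
Zfp36: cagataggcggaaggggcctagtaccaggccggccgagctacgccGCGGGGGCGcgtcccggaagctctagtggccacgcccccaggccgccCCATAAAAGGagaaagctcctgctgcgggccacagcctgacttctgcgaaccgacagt

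The stretches lie at chr12:85473740-85473889 on the plus strand (Fos) and on the minus strand at chr4:95052223-95052372 (Jun), chr1:191183334-191183483 (Atf3), chr17:26508473-26508622 (Dusp1) and chr7:28379229-28379378 (Zfp36). The cAMP response element TGACGTCA, bound by CREB and ATF proteins, begins 143 bases before the start of Dusp1 and is held by 1.36% of all 32851 windows of the same length. The shorter TGACG, which the full element contains, was found in Fos, Fosb, Junb, Atf3 and Dusp1, 5 of the 8 members searched, and in 13.3% of all windows. TGACATCA, the AP-1-like element of the Jun promoter, begins 45 bases before the start of Jun (2.32% of windows). A CArG box, the site of serum response factor, lies 58 bases before the start of Zfp36 (0.916% of windows), and the EGR site GCGGGGGCG was found in Zfp36 and Fosb (2.09% of windows). The consensus AP-1 site TGANTCA was in none of the 8 and in 4.24% of all windows, and Fos alone of them held TATAAA (7.57% of windows). A match is a match of letters only, and whether a factor was bound was not measured.

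The WT library held 5470 cells and 32799550 UMIs (unique molecular identifiers, 1 for each captured mRNA molecule), and the Vsir-/- library 1844 cells and 18601189 UMIs. Vsir had 4278 UMIs in WT and 8 in Vsir-/-, the direction the labels give. At least 1 UMI of the leukocyte gene Ptprc was in 94.2% of the WT and 73.6% of the Vsir-/- cells, and a list of 30 kidney tubule genes made up 292 UMIs of every 1000000 UMIs of the same cells (CPM) in WT and 5153 CPM in Vsir-/-. The libraries also differed in what could be counted. In WT 21 of these 30 genes were at 0 in every cell, as were 5348 genes in all, and no gene was found in exactly 1 WT cell against 708 in Vsir-/-. By RefSeq's synonyms at least 134 genes stood under 1 symbol in WT and another in Vsir-/-, such as Aes with 13241 WT UMIs and Tle5 with 7784 Vsir-/- UMIs, so gene models may have differed too. All 10 members were counted under 1 symbol in both, and whether a change of gene model moved them was not tested. Xist, transcribed in females, had 0 UMIs in WT and 16405 in Vsir-/-, and the Y-linked Ddx3y had 1779 in WT and 0 in Vsir-/-, so sex-linked transcripts differed with the genotype and cannot be told apart from it. The methods of the study give all its mice as male, which the Xist counts of the Vsir-/- library go against. Of 349 Vsir-/- cells in the CD4+ non-EM-like T cluster 233 had no UMI of 6 T cell genes, and neither had 123 of 189 in the proliferating cluster. The libraries shared 5 cell barcodes.

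In WT the summed level of the 10 genes differed by cluster from 2485 to 20848 CPM. Basophils had the most, with 20848 CPM (20112–21603) in 25 cells, followed by group 2 innate lymphoid cells (ILC2, 10304 CPM) and neutrophils (10222 CPM), and the counting intervals of the last 2 overlapped. M2-like R2 (infiltrating) macrophages (8674 CPM), the cluster named pDC (plasmacytoid dendritic cells, 7794 CPM), R1 (kidney-resident) macrophages (7693 CPM), B cells (7301 CPM) and Other R2 macrophages (6678 CPM) stood below them, and of these pDC and R1 could not be told apart. The T and NK clusters came last, where EM-like stands for a profile like that of effector memory cells. Gamma delta T cells (5213 CPM) and the cluster named NKT (5042 CPM) overlapped, as did CD4+ EM-like T (4294 CPM), CD8+ EM-like T (4170 CPM) and NK cells (4149 CPM). CD4+ non-EM-like T cells had 3669 CPM, proliferating cells 2600 CPM and CD8+ non-EM-like T cells 2485 CPM. In each T lineage the EM-like cluster was thus above its non-EM-like counterpart. In Vsir-/- this held for the CD4+ clusters (9533 against 4616 CPM), although 233 of 349 cells of the non-EM-like one had no T cell transcript. Its cells with such a transcript had 6088 CPM. The CD8+ clusters (5463 and 5338 CPM) had overlapping intervals in Vsir-/-.

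**Figure D1:**
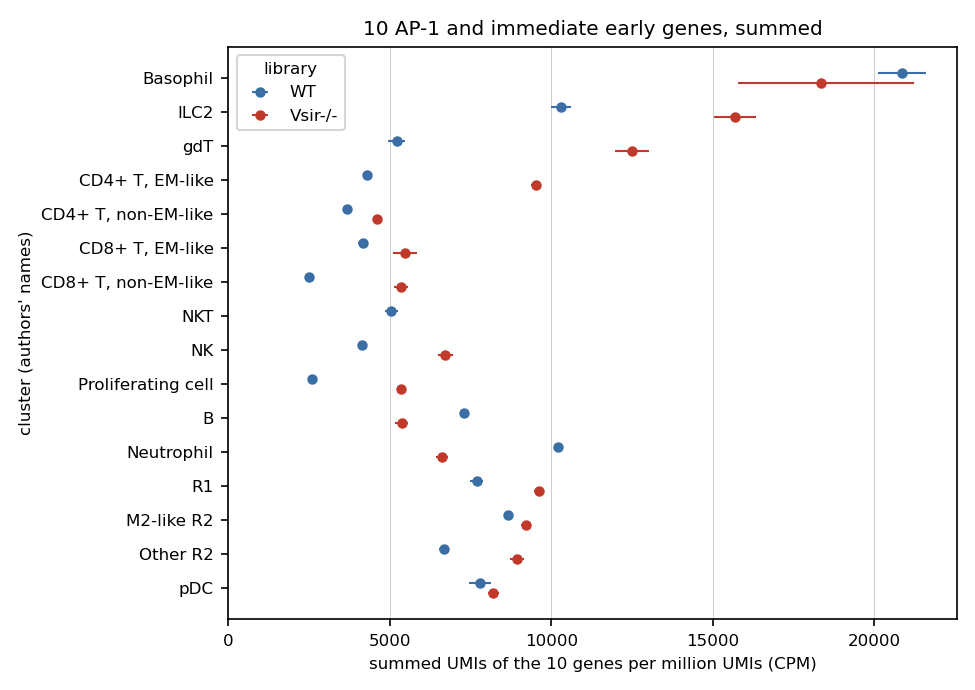
Summed level of the 10 genes (x axis, CPM, from 0) in each of the authors' clusters (y axis) in the WT library (blue) and the Vsir-/- library (red), with 95% Poisson intervals of counting error. Gamma delta T cells went from 5213 to 12497 CPM and CD4+ EM-like T cells from 4294 to 9533 CPM, whereas B cells and neutrophils were lower in Vsir-/-.

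The genotypes were compared in the 13 clusters with at least 20 cells in each library. The sum was highest relative to WT in gamma delta T cells, 2.40-fold (2.24–2.56), then CD4+ EM-like T, 2.22-fold (2.17–2.27), CD8+ non-EM-like T, 2.15-fold (2.05–2.24), and proliferating cells, 2.06-fold (2.00–2.12). Gamma delta T cells numbered 46 in WT and 28 in Vsir-/-, and 1 cell of each library held 13.5% and 10.9% of their 10-gene UMIs. Without these cells the log2 ratio was 1.31. The make-up of the gamma delta T cluster also differed between libraries. Its gamma delta receptor gene Trdc was in 65.2% of WT and 92.9% of Vsir-/- cells, at 837 and 2138 CPM. The alpha beta receptor gene Trac was at 192 CPM in WT, in 45.7% of the cells, and at 56.4 CPM in Vsir-/-. What part this had in the ratio of the cluster was not tested. CD8+ non-EM-like T cells numbered 659 and 50. Their markers differed too, with Ccr9 in 25.3% of WT and 2% of Vsir-/- cells. The T cell gene Cd3e was in 95.8% and 88% of them, at 483 and 269 CPM. What part this had in the ratio of that cluster was not tested. In NK cells the sum was 1.62-fold higher (4149 to 6716 CPM). It was 1.31-fold higher in CD8+ EM-like T (4170 to 5463 CPM) and 1.26-fold in CD4+ non-EM-like T cells (3669 to 4616 CPM). Among myeloid clusters the ratio was 1.34-fold for Other R2, 1.25-fold for R1, 1.06-fold for M2-like R2 and 1.05-fold for pDC. It was 0.736-fold in B cells (0.707–0.765) and 0.647-fold in neutrophils (0.628–0.667). Over all cells the 10 genes took 0.552% of UMIs in WT and 0.682% in Vsir-/-.

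By gene and cluster 130 ratios existed, of which 129 had at least 20 UMIs over both libraries; Atf3 in CD8+ EM-like T cells, with 5 UMIs in each, did not. Of the 129, 40 were at least 2-fold higher in Vsir-/-, 3 at least 2-fold lower and 86 within 2-fold. Of all 110590 pairs of gene and cluster that passed the same minimum, 17.6% were 2-fold higher and 9.83% 2-fold lower, or 14.6% and 9.23% when genes at 0 throughout either library were left out. The background differed by cluster, so members were read against it there. In CD4+ EM-like T cells 6 of 10 members were 2-fold higher against 10.4% of genes, in CD8+ non-EM-like T cells 7 of 10 against 9.89%, in gamma delta T cells 6 of 10 against 6.24% and in NK cells 5 of 10 against 9.07%. In CD8+ EM-like T cells it was 1 of 9 against 5.22%. Other R2 cells had 2 of 10 higher against 6.71%, and M2-like R2 cells 1 of 10 against 8.07%. B cells had 1 of 10 against 15.8% and pDC 1 of 10 against 13.2%, both near their background. R1 cells had 0 of 10 higher against 14.3% and neutrophils 0 of 10 against 9.74%. These 2 clusters had no member 2-fold higher. In the mixed clusters the background was itself high: 5 of 10 members stood against 48.0% of genes in CD4+ non-EM-like T cells, which is near the background, and 5 of 10 against 38.0% in proliferating cells. In neutrophils 2 of 10 members were 2-fold lower against 11.9% of genes. Over genes found in both libraries the same shares were 7.64% in CD4+ EM-like T, 9.24% in CD8+ non-EM-like T, 5.70% in gamma delta T and 8.36% in NK cells, and 10.8% lower in neutrophils.

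**Figure D2:**
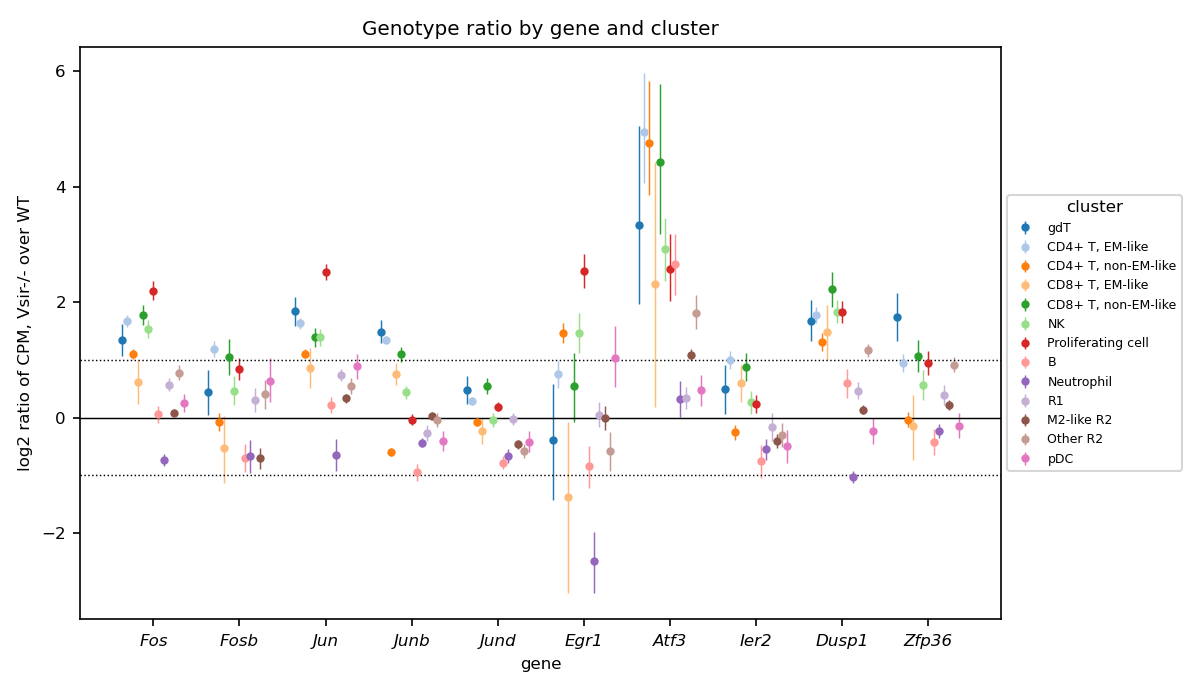
Ratio of CPM, Vsir-/- over WT (y axis, log2), for each gene (x axis) in each of the 13 clusters (colours), with exact 95% intervals of counting error; dotted lines mark 2-fold. Atf3 lies above 0 in all 13 clusters, Jund stays between the dotted lines, and the lowest point is Egr1 in neutrophils.

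Among the 13 compared clusters Fos, the main inducible partner of Jun, ranged in WT from 168 CPM in proliferating cells to 1723 CPM in M2-like R2 macrophages. In Vsir-/- its range was narrower, from 482 CPM in CD8+ EM-like T cells to 1828 CPM again in M2-like R2. It was higher in Vsir-/- in 12 of 13 clusters, with a median log2 ratio of 0.78, and past 2-fold in 6. CD4+ EM-like T cells had 377 CPM in WT against 1204 CPM in Vsir-/- (3.19-fold, 2.96–3.45), CD8+ non-EM-like T cells 226 and 778 CPM (3.45-fold) and NK cells 331 and 959 CPM (2.89-fold). In these lymphocytes the Vsir-/- level came closer to that of the macrophages, where M2-like R2 cells differed only 1.06-fold. Neutrophils went the other way, from 1663 to 1001 CPM. Fosb, a second Fos protein, was higher in 8 of 13 clusters with a median of 0.41, and only CD4+ EM-like T (290 to 661 CPM) and CD8+ non-EM-like T cells (115 to 240 CPM) passed 2-fold. The latter did not hold with cells thinned to 1000 UMIs, where the log2 ratio was −0.90. In M2-like R2 (300 to 185 CPM), B cells (495 to 307 CPM) and neutrophils (253 to 160 CPM) Fosb was lower, and these intervals did not reach 0 on the log2 scale.

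Jun, which pairs with Fos or with itself, was higher in 12 of 13 clusters with a median log2 ratio of 0.89. Of the compared clusters it was highest in the Vsir-/- gamma delta T cells, 2482 CPM against 691 CPM in WT (3.59-fold, 3.03–4.27). CD4+ EM-like T cells had 499 and 1551 CPM (3.11-fold) and R1 macrophages, the highest of the 13 in WT, 1350 and 2248 CPM (1.67-fold). Neutrophils had little Jun in either library, 277 and 178 CPM. Junb, often a brake on Jun-driven transcription, divided the clusters differently. It was higher in gamma delta T (1208 to 3396 CPM, 2.81-fold), CD4+ EM-like T (939 to 2383 CPM, 2.54-fold) and CD8+ non-EM-like T cells (609 to 1307 CPM, 2.15-fold), and in 5 clusters lower with intervals below 0, the lowest being B cells (1407 to 730 CPM, 0.519-fold). Its median log2 ratio over clusters was −0.04. Jund, the subunit that resting cells keep at a steady level, lay in the compared clusters between 784 CPM in CD8+ non-EM-like T and 2549 CPM in B cells in WT and between 860 and 1676 CPM in Vsir-/-. Its ratios ran from −0.78 in B cells to 0.55 in CD8+ non-EM-like T cells on the log2 scale, none past 2-fold.

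Atf3, a stress-induced partner of Jun, showed the widest range of any member. In WT it was 1.78 CPM in CD8+ non-EM-like T, 2.24 CPM in CD4+ non-EM-like T, 3.92 CPM in CD4+ EM-like T and 6.07 CPM in CD8+ EM-like T cells, against 439 CPM in M2-like R2, 459 CPM in R1 and 506 CPM in pDC. Of the compared clusters the myeloid ones thus had the most Atf3 in WT. In Vsir-/- the lymphocyte levels were 38.4, 61.1, 121 and 30.1 CPM in the same 4 T clusters, 116 CPM in NK, 116 CPM in B and 181 CPM in gamma delta T cells. A single Vsir-/- cell held 9 of the 17 UMIs in CD8+ non-EM-like T and 4 of the 5 in CD8+ EM-like T cells. The ratio in CD4+ EM-like T cells was 30.9-fold (16.9–62.9) and rested on 11 WT UMIs in 8 of 489 cells and 191 Vsir-/- UMIs in 63 of 244 cells, of which the richest cell had 28. In NK cells it was 7.54-fold (5.16–11.0) and in B cells 6.33-fold (4.38–9.13). In the 4 compared clusters with the most Atf3 in WT the ratio was smaller, 2.13-fold in M2-like R2 (439 to 935 CPM), 1.39-fold in pDC, 1.27-fold in R1 and 1.26-fold in neutrophils. The Vsir-/- level of CD4+ EM-like T cells was still under that of M2-like R2 or R1 cells of either library.

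Kidney tubule genes were also higher in Vsir-/- in these lymphocytes. In CD4+ EM-like T cells the 30 tubule genes summed to 161 CPM in WT, with 5 of them present, and 2655 CPM in Vsir-/-, with all 30. The 9 tubule genes found in both libraries gave 161 and 1083 CPM. The full list went from 87.3 to 3791 CPM in CD8+ non-EM-like T, from 107 to 1371 CPM in gamma delta T and from 84.1 to 2350 CPM in NK cells. The 9 genes found in both libraries went there from 87.3 to 1276, from 107 to 525 and from 84.1 to 698 CPM. In CD4+ EM-like T cells the 6 monocyte and R2 macrophage genes (Lyz2, Ly6c2, Ccr2, Plac8, Cx3cr1 and Csf1r) were at 1189 and 1295 CPM, and the 5 R1 macrophage genes at 203 and 330 CPM. Other markers were lower there in Vsir-/-, the neutrophil gene S100a8 at 98.1 and 39.9 CPM and the B cell gene Cd79a at 11.8 and 0.634 CPM. Per 100 tubule UMIs the Vsir-/- library had 5.06 Atf3 UMIs over all its cells, 4.56 in CD4+ EM-like T, 4.95 in NK and 13.2 in gamma delta T cells, 56.8 in M2-like R2 macrophages and 0.407 in the CD4+ non-EM-like cells without a T cell transcript. The CD4+ EM-like T and NK values lay near that of the whole library. Lower values were found in CD8+ non-EM-like T (1.01), CD8+ EM-like T (2.26) and B cells (2.66). What part free RNA had in the Atf3 levels was not tested. The make-up of the EM-like clusters differed between libraries too. In CD4+ EM-like T cells the 5 NK genes summed to 2764 CPM in WT and 1593 CPM in Vsir-/-, the NK receptor gene Ncr1 was in 31.3% and 5.74% of cells and the T cell gene Cd3e in 68.1% and 86.9%. A UMI of any of the 6 T cell genes was in 99.0% and 99.6% of them. In CD8+ EM-like T cells the NK genes were at 17456 and 8637 CPM. Their part in the members' ratios was not tested. The CD4+ EM-like T cluster also held Cd8 transcripts, with a Cd8a or Cd8b1 UMI in 21.1% of its cells in WT and 17.6% in Vsir-/-. Without those cells the 10 genes summed to 4581 CPM in WT against 10048 CPM in Vsir-/- (log2 ratio 1.13), and with them alone 3544 and 7413 CPM (1.06).

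Egr1, a zinc finger factor induced through serum response factor, was below 400 CPM in all 13 clusters of both libraries. Its ratio spread from 5.82-fold (4.76–7.19) in proliferating cells, 51.2 to 298 CPM, to 0.179-fold (0.122–0.255) in neutrophils, 237 to 42.5 CPM. With a T cell transcript required, the ratio in proliferating cells was 3.42-fold (2.71–4.34). NK cells were 2.77-fold higher, but 1 of 67 cells held 51 of the 101 UMIs there, and without the richest cell of each library the log2 ratio was 0.60 in place of 1.47. In CD8+ EM-like T cells the ratio of 0.387-fold rested on 5 Vsir-/- UMIs, of 28 cells. Ier2, a small nuclear protein of the same response, passed 2-fold in no cluster. It was highest relative to WT in CD4+ EM-like T cells (221 to 442 CPM, log2 ratio 0.998, just under the limit) and lowest in B cells (362 to 215 CPM, −0.75).

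Dusp1 and Zfp36 encode the feedback products. Dusp1 was higher in Vsir-/- in 11 of 13 clusters, past 2-fold in 8, with a median log2 ratio of 1.31. In WT it ranged from 62.0 CPM in CD8+ non-EM-like T cells to 2120 CPM in neutrophils. CD8+ non-EM-like T cells reached 292 CPM in Vsir-/- (4.70-fold, 3.80–5.79), NK cells went from 178 to 635 CPM (3.57-fold) and CD4+ EM-like T cells from 254 to 872 CPM (3.43-fold). CD8+ EM-like T cells, where no other member with at least 20 UMIs was 2-fold higher, went from 131 to 367 CPM (2.80-fold). Neutrophils had 1040 CPM in Vsir-/- (0.491-fold). Zfp36 was higher in 8 of 13 clusters with a median of 0.39, and past 2-fold in gamma delta T (257 to 858 CPM, 3.34-fold) and CD8+ non-EM-like T cells (132 to 278 CPM, 2.10-fold). In Other R2 macrophages both feedback genes stood at their Vsir-/- maximum of the 13 clusters, 1941 CPM for Dusp1 and 1249 CPM for Zfp36, from 865 and 660 CPM in WT.

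**Figure D3:**
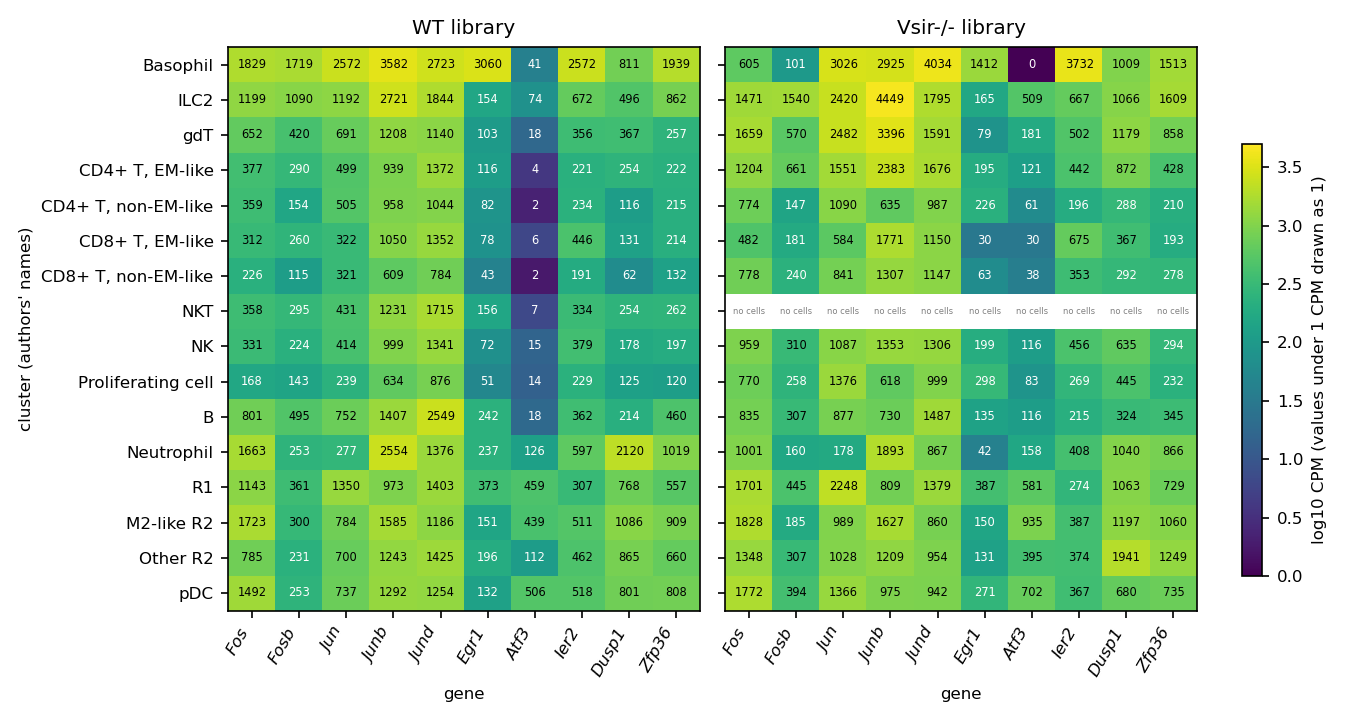
Level of each gene (x axis) in each cluster (y axis) in the WT library (left) and the Vsir-/- library (right); the number in a cell is CPM and the colour its log10. Atf3 is dark in the lymphocyte rows of WT, from 1.78 CPM, and lighter there in Vsir-/-, and the basophil row is bright for most genes in WT; NKT has no Vsir-/- cells, and the Vsir-/- basophil row rests on 2 cells.

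In neutrophils the sum was lower in Vsir-/-, as it was in B cells. All members but Atf3 were lower in neutrophils of the Vsir-/- library, with intervals below 0 on the log2 scale: Fos (0.602-fold), Fosb (0.632-fold), Jun (0.640-fold), Junb (0.741-fold), Jund (0.630-fold), Egr1 (0.179-fold), Ier2 (0.683-fold), Dusp1 (0.491-fold) and Zfp36 (0.850-fold). The cluster had 524 WT and 158 Vsir-/- cells, and the 5 neutrophil markers made up 258171 CPM in WT and 283737 CPM in Vsir-/-, so its name held in both. The median mitochondrial share of its cells was 0.439% in WT and 1.86% in Vsir-/-, and its T cell genes were 451 CPM in WT and 55.3 CPM in Vsir-/-, whose part in the difference was not tested. In B cells 6 members were lower with intervals below 0 (Fosb, Junb, Jund, Egr1, Ier2 and Zfp36), Fos did not differ beyond counting error (801 and 835 CPM), and Jun, Atf3 and Dusp1 were higher. Of the 88 Vsir-/- B cells 56.8% had a Ptprc UMI, against 86.1% of 969 in WT, and the 4 B cell markers were at 2122 CPM against 5678 CPM in WT. Cd79a was in 50% of the Vsir-/- cells against 99.7% in WT, and Lyz2 was at 511 against 68.3 CPM. The markers thus bore the name out for a part of the Vsir-/- cells only. The tubule genes were at 4373 and 449 CPM there, or 1712 and 449 CPM for the 9 found in both libraries. Their part was not tested.

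In the macrophage clusters the members did not share 1 direction. In R1 cells Jun (1.67-fold), Fos (1.49-fold), Dusp1 (1.38-fold), Zfp36 (1.31-fold), Atf3 and Fosb were higher, Junb lower (0.832-fold), and Jund, Egr1 and Ier2 did not differ beyond counting error. In M2-like R2 cells Atf3 alone passed 2-fold, beside 8.07% of all genes 2-fold higher there. Fosb, Jund (0.725-fold) and Ier2 (0.757-fold) were lower in these cells. Other R2 cells combined higher Atf3 (112 to 395 CPM, 3.54-fold), Dusp1 (2.24-fold), Zfp36 (1.89-fold) and Fos (1.72-fold) with lower Jund (0.67-fold), Egr1 and Ier2. In WT 1 Other R2 cell held 85 of the 251 Egr1 UMIs. Without the richest cell of each library the log2 ratio of Egr1 there was −0.26. The cluster named pDC had UMIs of all 4 pDC markers, but Siglech was in 28.6% of 21 WT and 23.3% of 86 Vsir-/- cells. Ccr9 was in 23.8% and 23.3%. Bst2 (100% and 90.7%) and Tcf4 (81.0% and 68.6%) were more frequent, but were also in 87.9% and 52.6% of WT R1 cells. The markers thus bore the name out for a part of the cells only. Cd74, an antigen presentation gene, was at 11564 and 18074 CPM. In the pDC cluster Jun was 1.85-fold higher, Egr1 2.05-fold, and Junb and Jund lower (0.754-fold and 0.751-fold). In WT pDC 1 cell held 22 of the 35 Egr1 UMIs, and without the richest cell of each library the log2 ratio of Egr1 was 2.27 in place of 1.04. Markers of other cells moved in the macrophage clusters as well. The 5 neutrophil genes went from 4316 to 242 CPM in M2-like R2, from 3598 to 214 CPM in Other R2 and from 1734 to 131 CPM in R1 cells, and the 4 B cell genes from 1188 to 7.76 CPM in Other R2 and from 1131 to 56.2 CPM in R1 cells. In M2-like R2 cells C1qa, an R1 macrophage gene, was in 2.63% of WT and 26.8% of Vsir-/- cells, at 31.9 and 378 CPM. Cd74 was at 2673 and 8407 CPM in that cluster. In Other R2 cells C1qa was in 1.06% and 11.5% of cells. Of the R1 cells 94.8% had a Ptprc UMI in WT and 78.1% in Vsir-/-. The part of these in the members' ratios was not tested.

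Mixed cells bore on the CD4+ non-EM-like T and proliferating clusters. The 116 Vsir-/- CD4+ non-EM-like cells with a T cell transcript had a 10-gene sum of 6088 CPM, 1.66-fold (1.61–1.71) that of WT. The 233 cells without one had 4084 CPM, and 13528 CPM of tubule genes. Tubule genes were still at 4823 CPM in the 116 cells, against 139 CPM in WT, and 25 of the 116 had no Ptprc UMI. A T cell transcript does not by itself mark a T cell, since 48.7% of WT M2-like R2 cells had one. With the T cell transcript required, all 10 members were higher than in WT, against 5 of 10 without that requirement, and 5 were past 2-fold in both. Of all genes 35.1% were 2-fold higher in the cells with that transcript. Junb shows the shift, since it was 958 CPM in WT, 635 CPM in all Vsir-/- cells of the cluster and 1345 CPM in those with a T cell transcript. In proliferating cells the split changed less: the sum was 2619 CPM in WT, 4934 CPM in 66 Vsir-/- cells with a T cell transcript (1.88-fold) and 5549 CPM in 123 without. With that transcript 5 of 10 members were 2-fold higher, beside 24.3% of all genes, and tubule genes were at 181 and 1965 CPM. Ncr1 was in 55.9% of all WT and 6.35% of all Vsir-/- cells of the proliferating cluster, and its part was not tested. The median ratio of all genes was 0.92 (log2) in the CD4+ non-EM-like T cluster and 0.53 in the proliferating one, 0.49 and 0.21 with the T cell transcript required, and within 0.1 of 0 in the other 11 clusters. Taken relative to that median, the sum in CD4+ non-EM-like T cells was lower in Vsir-/- (−0.59).

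The other clusters had too few Vsir-/- cells for a ratio. Basophils (25 and 2 cells) had 3060 CPM of Egr1, 3582 CPM of Junb and 1719 CPM of Fosb in WT, all above every one of the 13 compared clusters, while their Atf3 was 41.3 CPM, 6 UMIs. Their granule protease Mcpt8 was in 92.0% of WT cells, so the name held. ILC2 (79 and 19 cells) had 2721 CPM of Junb in WT and 4449 CPM in Vsir-/-, 1192 and 2420 CPM of Jun, and 74.3 and 509 CPM of Atf3, with 49.6 and 8051 CPM of tubule genes. The 9 tubule genes found in both libraries were at 49.6 CPM in WT and 2853 CPM in Vsir-/- there. The markers of the cluster named NKT, found only in WT (94 cells), bore its name out in part only. The B cell gene Cd79a was in 67.0% of its cells, Ncr1 in 53.2% and Cd3e in 24.5%, with NK genes at 10566 CPM and B cell genes at 2473 CPM. A UMI of any of the 6 T cell genes was in 91.5% of its cells, and in 85.0% of the WT NK cells. The cluster named NKT had 1715 CPM of Jund, 1231 CPM of Junb and 3 UMIs of Atf3 in all.

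The median cell also held more of these UMIs in Vsir-/- in most of the compared clusters. Each cell was thinned to 1000 UMIs by random draw, and cells with fewer were left out (167 WT and 78 Vsir-/- cells). In CD4+ EM-like T cells the median number of 10-gene UMIs a cell was then 4 in WT (quartiles 2 and 6) and 9 in Vsir-/- (5 and 13), in gamma delta T cells 5 and 11, in CD8+ non-EM-like T cells 2 and 5 and in NK cells 4 and 7. Neutrophils had 11 and 7, and M2-like R2 cells 8 and 8. The 48 WT CD4+ EM-like T cells richest in these UMIs, of 479, held 30.0% of them, and the 24 richest of 241 Vsir-/- cells 27.1%. The proliferating cluster was more uneven in Vsir-/-, where the 18 richest of 183 cells held 39.4%.

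**Figure D4:**
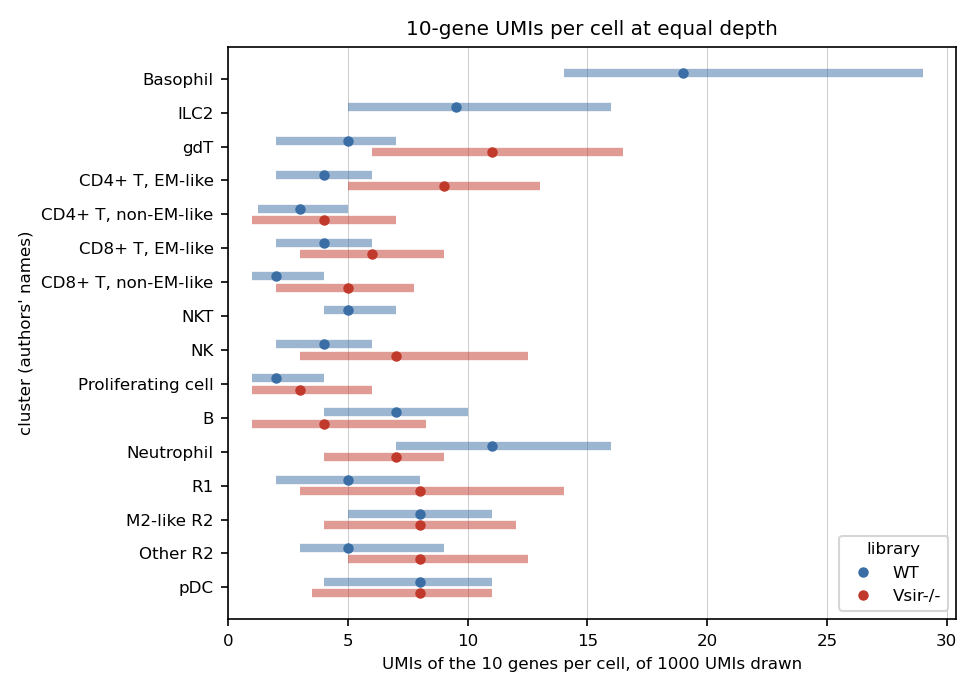
UMIs of the 10 genes in a cell after thinning to 1000 UMIs (x axis, from 0), by cluster (y axis) and library (WT blue, Vsir-/- red); points are medians and bars the quartiles over cells, which are not replicates. The medians were 4 and 9 in CD4+ EM-like T cells and 11 and 7 in neutrophils, and sets of under 20 cells are not drawn.

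The share of cells with a UMI at equal depth was higher in Vsir-/- in 86 of 130 pairs. No such count was made over all genes, so whether it is particular to the members was not tested. Among CD4+ EM-like T cells Fos was detected in 26.5% in WT (22.6–30.7) and 51.9% in Vsir-/- (45.4–58.3), and Atf3 in 0.418% and 7.47%. Unthinned, these shares were 62.6% and 86.5% for Fos and 1.64% and 25.8% for Atf3, at median depths of 4903 and 5852.5 UMIs. The lowest share of any member in a compared cluster was that of Atf3 in WT CD8+ non-EM-like T cells, 0 of 659 thinned cells, with an upper bound of 0.558% (Clopper-Pearson), or 1.37% unthinned at a median depth of 7117 UMIs. No cluster is known to lack these genes, so no background share can be given. In neutrophils Egr1 was detected in 21.3% of WT (17.8–25.1) and 3.27% of Vsir-/- thinned cells (1.07–7.46).

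For most pairs in most clusters, 1 member was detected more often in cells with the other than in cells without it. For a pair of genes the share of cells with the second was compared between cells with and without the first, at 1000 UMIs and where both sets had at least 10 cells. In Vsir-/- R1 macrophages it was higher in the cells with the first gene in 45 of 45 pairs, and in 26 the intervals did not overlap. There Fos was detected in 73.8% of cells with a Jun UMI (65.4–81.2) and 41.5% of cells without (30.7–52.9), and in 77.5% of cells with Dusp1 and 46.4% without. In CD4+ EM-like T cells 34 of 36 WT pairs and 41 of 45 Vsir-/- pairs went that way, with intervals apart in 8 and 2. In no cluster were the intervals of a pair apart in the other direction. Gamma delta T cells had 22 of 29 WT pairs and 13 of 19 Vsir-/- pairs going that way, with intervals apart in 0 of them. Each such share is a description of cells within 1 library. Pairs of other genes were not compared, so whether this is particular to the members was not tested.

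Of the 10-gene UMIs the share taken by each gene differed between lymphocytes and myeloid cells. Since 3′ counting takes 1 UMI a molecule whatever the length, no length correction was made. In WT CD4+ EM-like T cells Jund took 31.9%, Junb 21.9%, Jun 11.6% and Fos 8.78%. In Vsir-/- Junb took the largest share, a larger one than in WT, then Jund 17.6%, Jun 16.3%, Fos 12.6% and Dusp1 9.15%, up from 5.92%. In M2-like R2 cells Fos took 19.9% in WT and 19.8% in Vsir-/-, and Atf3 5.06% and 10.1%. Neutrophils gave 20.7% of these UMIs to Dusp1 in WT and 15.7% in Vsir-/-, and 2.71% and 2.69% to Jun.

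**Figure D5:**
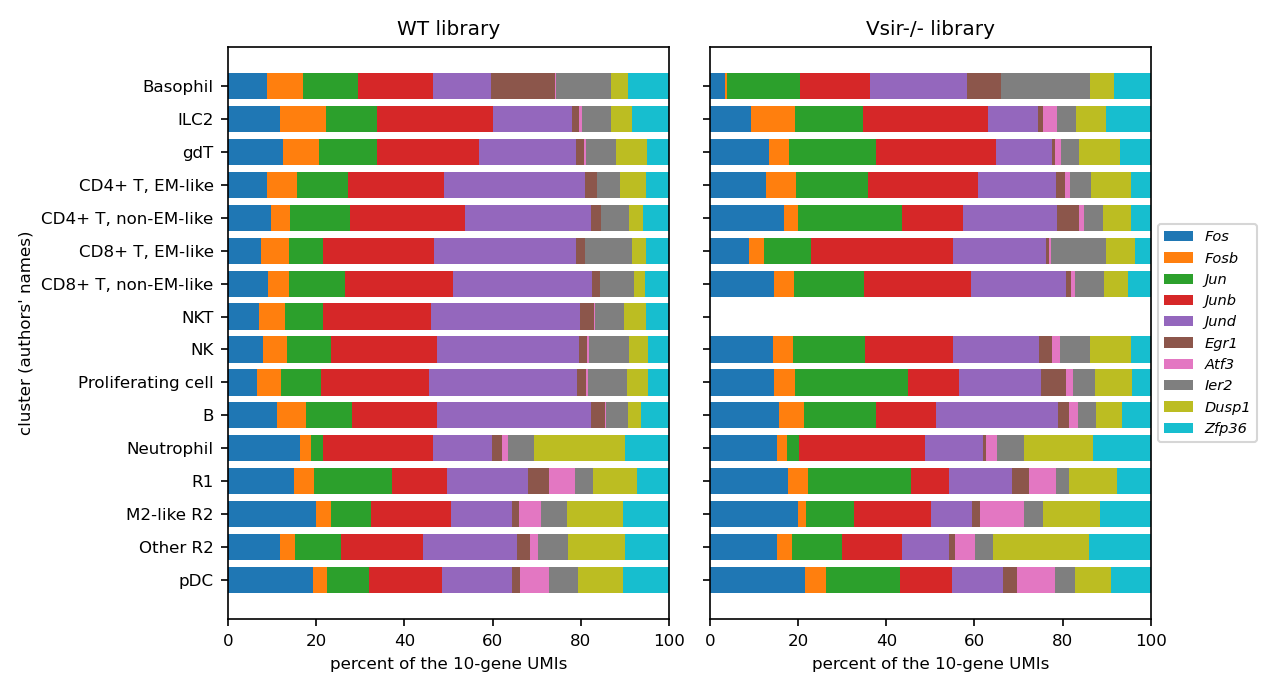
Share of the 10-gene UMIs taken by each gene (x axis, percent, stacked to 100) in each cluster (y axis) for WT (left) and Vsir-/- (right, where NKT has no cells). Jund takes 31.9% in WT CD4+ EM-like T cells and 17.6% in Vsir-/-, and Dusp1 takes 20.7% in WT neutrophils.

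Across the 24 profiles of cluster and library with at least 50 cells, the members fell into loosely tied groups. The points share 2 libraries and their free RNA, so correlations of log2(CPM + 10) are a description. Fos went with Atf3 (Pearson r 0.89), Dusp1 (0.88) and Zfp36 (0.88), Dusp1 with Zfp36 (0.89), and Junb with Ier2 (0.87). The lowest values were those of Jund with Atf3 (−0.16), Jun with Junb (−0.02) and Jund with Dusp1 (0.02). Fos followed the 10-gene sum most closely (0.94). Among 8775 other genes with at least 500 UMIs, the 5 most like the sum were Rgs2 (0.81), a regulator of G protein signalling, Gla (0.79), a lysosomal galactosidase, Gm26532 (0.79), Ier5 (0.78), another immediate early gene, and H3f3b (0.77), which encodes histone H3.3.

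Other genes of the response were followed in 4 lists. Of 44 related immediate early genes 43 were in the matrix, 1 of which (Cyr61) had no Vsir-/- counts under that symbol. Of 38 tested in CD4+ EM-like T cells, 10 were 2-fold higher in Vsir-/- and 1 lower, beside 10.4% and 5.68% of all genes. The median log2 ratio of the 38 was 0.57, against −0.01 for all genes. The higher ones were Klf6 (361 to 927 CPM), Gadd45b (107 to 294 CPM), Nr4a1 (54.6 to 126 CPM), which antigen receptor signals induce, Nfkbiz, Klf4, Csrnp1, Trib1, Ier3, Cebpd and Dusp4, and the lower one was Jdp2, a repressor of AP-1 (48 and 9 UMIs). CD8+ non-EM-like T cells had 11 of 33 higher and 1 lower (median 0.82, against 0.00 for all genes), beside 9.89% and 10.1% of all genes. Among the higher were Nr4a1 (15.0 to 118 CPM), Nr4a2, Klf6 and Gadd45b. Gamma delta T cells had 8 of 24 higher and none lower (0.72, against −0.02), beside 6.24% and 7.52% of all genes. Nr4a1, Nr4a2 and Gadd45b were again among the higher. These examples were chosen after their values were seen. In NK cells 4 of 37 were higher and 4 lower, beside 9.07% and 7.60% of all genes. CD4+ non-EM-like T cells had 13 higher and 10 lower of 40 (48.0% and 10.7% of all genes). Proliferating cells had 13 higher and 7 lower of 41 (38.0% and 8.98%). In neutrophils 0 of 36 were higher and 3 lower (median −0.35, against −0.08), namely Dusp2, Maff and Egr2, beside 11.9% of all genes 2-fold lower there. B cells had 5 higher and 6 lower of 38 (15.8% and 16.7% of all genes), R1 cells 4 and 6 of 38 (14.3% and 8.67%). pDC had 3 and 3 of 36 (13.2% and 9.50%), M2-like R2 cells 2 and 2 of 39 (8.07% and 8.17%). Other R2 cells had 0 and 3 of 34 (6.71% and 10.1%), CD8+ EM-like T cells 4 and 0 of 25 (5.22% and 12.6%).

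The 5 most abundant of that list stayed within 2-fold in CD4+ EM-like T cells. Btg1 and Btg2, which restrain proliferation, had log2 ratios of −0.01 and −0.32, Klf2, a factor of quiescent T cells, −0.29, Cebpb 0.56 and Zfp36l2, a relative of Zfp36, 0.13. Of the 21 upstream kinases and factors none was 2-fold higher there and 3 were lower, with a median of −0.11, beside 5.68% of all genes 2-fold lower. The 3 were Srf, which encodes serum response factor itself (32.5 to 10.8 CPM, 91 and 17 UMIs), Nab2, an EGR1 corepressor (80 and 19 UMIs), and Mkl1, whose Vsir-/- counts stood under its other symbol Mrtfa, so that its ratio cannot be read. Among the most abundant of the list were Map2k2 (0.06), Mapkapk2 (0.73), Mapk3 (0.15) and Nab1 (−0.14).

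The 9 mRNAs that ZFP36 is known to destabilise were low in CD4+ EM-like T cells, where 6 passed the minimum. Ier3 (9.63 to 43.1 CPM) and the cytokine Csf2 (16 and 38 UMIs) were 2-fold higher there and none 2-fold lower. Ccl3 stood at 182 CPM in WT against 94.5 CPM, Tnf at 43.9 against 54.5 CPM and Cxcl2 at 13.2 against 11.4 CPM, and Ptgs2 had 2 and 1 UMIs. Cxcl2 was highest in neutrophils, with 4384 CPM in WT against 3066 CPM, and in M2-like R2 macrophages it stood at 321 against 794 CPM.

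The heat shock list, genes of protein folding that stress induces, was higher in Vsir-/- in several clusters, among them T cell, NK and R1 clusters. Within CD4+ EM-like T cells it summed to 5797 CPM in WT against 10722 CPM in Vsir-/-, with a median log2 ratio of 1.23. Beside 10.4% of all genes, 7 of the 13 listed genes were at least 2-fold higher there. These were the inducible Hspa1a (150.2 to 1146 CPM) and Hspa1b (245 to 1298 CPM), Dnajb1 (128 to 449 CPM), Hsph1, Bag3, Hspb1 (4 and 116 UMIs) and Hsp90aa1 (496 to 1167 CPM). The other abundant ones differed less, Hsp90ab1 going from 1727 to 2686 CPM, Hspa8 from 1721 to 2104 CPM, Dnaja1 from 665 to 906 CPM and Hspe1 from 378 to 408 CPM. CD8+ non-EM-like T cells had 4 of 12 higher (median 0.69), again with Hspa1a and Hspa1b, against 9.89% of all genes. Gamma delta T cells had 2 of 10, the same pair, against 6.24% (median 0.50). NK cells had 3 of 12 against 9.07% (median 0.71), and R1 cells 2 of 13 against 14.3% (median 0.63). CD4+ non-EM-like T cells had 2 of 13 higher against 48.0% of all genes, with a median of 0.28 against 0.92 for all genes. The heat shock sum was also higher where the 10-gene sum was lower or differed little, 4981 to 6298 CPM in B cells, 5743 to 7066 CPM in M2-like R2 and 7057 to 9080 CPM in pDC. In neutrophils, where most members were lower, it was 1800 CPM in WT against 1758 CPM. In proliferating cells, where the 10-gene sum was higher, the heat shock sum was 7068 CPM in WT against 6978 CPM in Vsir-/-. There 3 of 13 listed genes were 2-fold higher against 38.0% of all genes, with a median of 0.08 against 0.53. The part of heat shock in the members' levels was not tested.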

How the data were processed

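The authors ran Cell Ranger 3.1.0 on 10x 3′ libraries (chemistry version 3.1) and R 4.0.3 with Seurat 3.2.3, with genome build mm9 per the submitters' processing notes; the annotation is not given in the sources used here. By the methods of the study genes found in few cells, cells with few UMIs and cells over 10% mitochondrial were dropped, and the clusters were named by the authors. The deposited matrix held counts, whole UMIs for each gene and cell, and the deposited cell table gave the UMI count and the mitochondrial percent of each cell. Whether doublets were removed is not stated, and none were removed here.

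UMI counts were summed over cells by cluster and library and divided by all UMIs of the same cells (CPM). Intervals were exact Poisson for levels, Clopper-Pearson for shares and exact conditional for ratios, at 95%, and cover counting error only. In the deposited matrix at least 134 genes stood under different symbols in the 2 libraries. Ratios needed 20 cells in each library and 20 UMIs in both together, a gene at 0 was set to 3 counts, and 2-fold was the limit for a call. There was 1 library a genotype, so no p-value was computed. The ratio code was tested on simulated data. Genes, rules and lists were chosen with earlier results of these data known. Named genes were the 10 members, the 5 most abundant of each list and the 5 most alike in profile, of which 1 gene is not reported here. List members past 2-fold, marker and sex-linked genes, the symbol check and the split by a Cd8 UMI were added after the values were seen. Promoters were RefSeq, GRCm38.p6, searched in 150 bases on both strands. Python 3.11.15, numpy 2.4.6, scipy 1.17.1, pandas 2.3.3 and matplotlib 3.10.9 were used.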

Additional observations from a re-analysis of the deposited data

Results flagged for a closer look

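The 10-gene sum in B cells, with a log2 ratio of −0.44 of Vsir-/- over WT, and in neutrophils, with −0.63, went in the opposite direction to that in the other 11 clusters compared, which were all above 0. With 1 library a genotype the difference between clusters was not tested. The neutrophil value rested on 524 WT and 158 Vsir-/- cells, the B cell value on 969 and 88. Of these 88 cells 50% had a UMI of the B cell gene Cd79a, against 99.7% of the 969 in WT.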

How the results depend on the processing

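The number of clusters with a higher 10-gene sum in Vsir-/- (11) was 10 or 11 under all alternatives, and the number of members 2-fold higher (40 pairs) was 33 to 43, except with a 4-fold limit, which left 11 higher and 1 lower. The 3 pairs 2-fold lower became 5 when cells were thinned to 1000 UMIs, 6 when mitochondrial and ribosomal genes were left out of the denominator, and 5 when ratios were centred on the median of all genes; the cause was not tested. The sum stayed below 0 in B cells (−0.63 to −0.17) and neutrophils (−0.84 to −0.55) under all 11 alternatives, above 0 in 9 clusters, and crossed 0 in non-EM-like CD4+ T cells (−0.59 to 0.76) and pDC (−0.14 to 0.24). Of 44 ratios past 2-fold, Atf3 in EM-like CD8+ T cells included, 1 reversed under 1 alternative: Fosb in CD8+ T, non-EM-like cells was −0.90 with cells thinned to 1000 UMIs; the cause was not tested. Leaving out the richest cell of each cluster and library kept the direction of all 44 and left 41 past 2-fold. The share of cells with a UMI was higher in Vsir-/- in 90 of 130 pairs at 500 UMIs and 86 at 2000. Leaving out Jund and taking the median of the 10 ratios were chosen after seeing the data. No paired analysis was possible because each genotype has 1 library. Depth limits Atf3 most, with 5 to 11 UMIs in the 4 WT T clusters.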
